A study of Oryza brachyantha and Oryza sativa Japonica Group and Oryza glaberrima with 38 samples.

Results

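Histone H3 acetylated at lysine K9 (H3K9Ac) was set against histone H3 acetylated at lysine K56 (H3K56Ac) in Oryza brachyantha, a wild relative of rice. Both marks were mapped by chromatin immunoprecipitation and sequencing in aerial tissue of green-house plants at the tillering stage, 60 days after germination. Every interval on chromosomes 1 to 12 of the authors' H3K9Ac peak list (batch 1) and H3K56Ac peak list (batch 2) was taken. That gave 28168 H3K9Ac and 32042 H3K56Ac intervals, or 60210 of the 532158 lines in the 21 peak lists of the series. A further 10 H3K9Ac and 12 H3K56Ac intervals on unplaced contigs were left out.

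H3K9Ac lies on the flexible tail of the histone, on the same residue whose methylation marks plant heterochromatin, so a single tail cannot carry both modifications at that residue. It is known in plants as a mark of the beginnings of active genes, placed by GCN5-type acetyltransferases. H3K56Ac lies in the globular core of the histone, close to where DNA enters and leaves the nucleosome. In Saccharomyces cerevisiae it is placed on newly made histone by Rtt109 and accompanies nucleosome assembly, and in plants it is found on active genes.

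Each acetyl mark was represented by 1 library, and the batch differed along with the mark. The H3K9Ac list was called against an input that the titles also name for H3K36me3. The H3K56Ac list was called against an input shared with H3K9me2 and H3K4me3 of batch 2. Mark and batch therefore cannot be told apart between these lists, no test between the marks was possible, and all values below are descriptions. H3K4me3, a mark of the beginnings of active genes, was listed in both batches (n = 2) and gave the same measures for 1 mark across the batches, although its batch 1 list was called against total H3 and its batch 2 list against input. Aerial tissue holds many cell types, so intervals in both lists need not carry both marks in the same cell. Read depth is not in the files. Pileup (the authors' height of stacked fragments at the summit of an interval) was therefore ranked within a list and not compared in size between lists.

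Both lists were rich in H3K4me3 and nearly free of the heterochromatin mark H3K9me2. An H3K4me3 interval touched 73.4 ± 0.459% of H3K9Ac intervals and 72.0 ± 0.0110% of H3K56Ac intervals (mean over H3K4me3 batches ± SD, n = 2). Of all 250 bp tiles of the chromosomes, 10.6% touched H3K4me3 of batch 1 and 10.8% touched H3K4me3 of batch 2. H3K9me2 touched 0.110% of H3K9Ac intervals in batch 1 and 0.327% in batch 2. The H3K56Ac values were 0.150% in batch 1 and 0.431% in batch 2. The share of tiles with H3K9me2 was 9.78% in batch 1 and 13.2% in batch 2, so both acetyl lists lay almost wholly outside the H3K9me2 lists. In seedlings, H3K9me2 touched 0.426% of H3K9Ac and 0.549% of H3K56Ac intervals, against 14.4% of tiles. Tiles are shorter than most intervals and meet a mark less often for that alone.

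The 2 lists covered nearly the same length of genome with intervals of different size. H3K9Ac covered 18.3 Mb, or 7.08% of the chromosomes, and H3K56Ac covered 17.9 Mb, or 6.93%. The median width was 577 bp for H3K9Ac (quartiles 338 and 826 bp) and 502 bp for H3K56Ac (quartiles 277 and 730 bp). H3K9Ac intervals ran up to 7433 bp, and H3K56Ac intervals up to 4111 bp. H3K4me3 was wider than either, with medians of 837 bp in batch 1 and 778 bp in batch 2. Within the lists, pileup had a median of 71 for H3K9Ac (quartiles 40 and 130) and 40 for H3K56Ac (quartiles 26 and 64). The authors' median fold enrichment over the control was 5.12 for H3K9Ac and 4.83 for H3K56Ac. A −log10 q of at least 10 was reached by 70.3% of H3K9Ac intervals and 60.0% of H3K56Ac intervals.

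Most intervals of each acetyl mark overlapped one of the other by at least 1 bp. An H3K56Ac interval met 23387 H3K9Ac intervals, or 83.0% of that list (exact 95% binomial interval 82.6 to 83.5%). An H3K9Ac interval met 24050 H3K56Ac intervals, or 75.1% (exact 95% binomial interval 74.6 to 75.5%). Of the 250 bp tiles, 9.76% touched H3K9Ac and 9.95% touched H3K56Ac. These binomial intervals treat genome intervals as independent and cover counting error only. By length, the lists had 13.5 Mb in common, which was 73.6% of the H3K9Ac length, 75.2% of the H3K56Ac length and 59.2% of the length in either. For H3K4me3, the same measures were 92.4% of batch 1 intervals, 88.2% of batch 2 intervals and 76.0% of the length in either. The acetyl marks thus overlapped less than H3K4me3 did with itself across the batches. H3K4me3 intervals were also wider, and the part of width in this difference was not tested. The order of the acetyl shares depended on how long the lists were. With the 28168 H3K56Ac intervals of highest −log10 q, 80.1% of H3K9Ac and 81.4% of H3K56Ac intervals were shared. With −log10 q of at least 10 in both lists, the shares were 84.4% of H3K9Ac and 87.7% of H3K56Ac intervals.

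Sharing followed strength within each list. From the lowest to the highest quintile by pileup, 43.4%, 78.2%, 94.6%, 99.1% and 99.9% of H3K9Ac intervals were shared. In the same order, 32.4%, 56.5%, 87.6%, 99.0% and 99.9% of H3K56Ac intervals were shared. Above the middle quintile, few intervals of either mark stood without the other. In the top quintile, 4 of 5634 H3K9Ac intervals and 8 of 6409 H3K56Ac intervals were unshared. H3K4me3 across batches went the same way from a higher start, with 66.6% of the lowest quintile shared in batch 1 and 55.3% in batch 2.

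**Figure D1:**
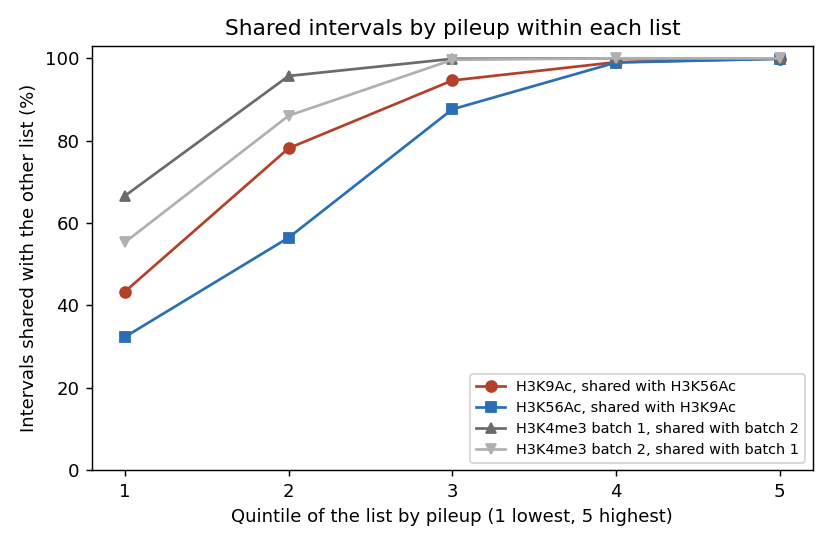
Share of intervals (%) that overlap the other list by at least 1 bp, for each quintile of a list ranked by pileup, with H3K4me3 of batches 1 and 2 as the same measure for 1 mark. Both acetyl marks climb with pileup, H3K9Ac from 43.4% and H3K56Ac from 32.4% in the lowest quintile to 99.9% each in the highest.

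The ranks of the shared intervals also went together. Over the 21407 intervals that overlapped 1 to 1, Spearman's rho of the pileups was 0.823, and it was 0.781 for fold enrichment over the control. These pairs share position, sequence and mappability, and they are not replicates. Across batches, H3K4me3 gave 0.845 for pileup over 20630 pairs and 0.774 for fold enrichment, both close to the acetyl values. Which of the 2 comparisons was higher turned with the measure. With H3K4me3 of batch 1, the pileup correlation was 0.600 for H3K9Ac and 0.534 for H3K56Ac, and with batch 2 it was 0.556 for H3K9Ac and 0.545 for H3K56Ac. With H3K4me2, a methylation that in plants covers gene bodies as well as gene beginnings, it was −0.383 for H3K9Ac and −0.309 for H3K56Ac. The strength of one acetyl mark thus went with that of the other more closely than with H3K4me3, although H3K9Ac shared a batch with H3K4me3 of batch 1 and H3K56Ac shared a batch and an input with that of batch 2. Width was less alike, with rho of 0.697 for the acetyl marks against 0.889 for H3K4me3 across batches. The paired intervals had a median width of 627 bp for H3K9Ac and 601 bp for H3K56Ac, and H3K9Ac was the wider in 54.7% of pairs.

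Large rank changes were the exception. The median gap in percentile among the pairs was 10.3 points, and 14.1% of pairs differed by more than 25 points. Of the top quintile of pairs by pileup, 2857 were in both tops, which was 66.9% of the 4271 for H3K9Ac and 68.1% of the 4198 for H3K56Ac. Only 5 pairs were in the top quintile for H3K9Ac and the bottom quintile for H3K56Ac, and 4 were the other way round. In the 1519 pairs ranked more than 25 points higher for H3K9Ac, the median width was 759 bp for H3K9Ac and 549 bp for H3K56Ac. In the 1502 pairs ranked higher for H3K56Ac, it was 456.5 bp for H3K9Ac and 642 bp for H3K56Ac. H3K27me2, a lower methylation state of the lysine that Polycomb proteins trimethylate, touched 22.8% of the pairs ranked higher for H3K9Ac and 33.3% of those ranked higher for H3K56Ac. It touched 28.0% of the pairs within 25 points.

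**Figure D2:**
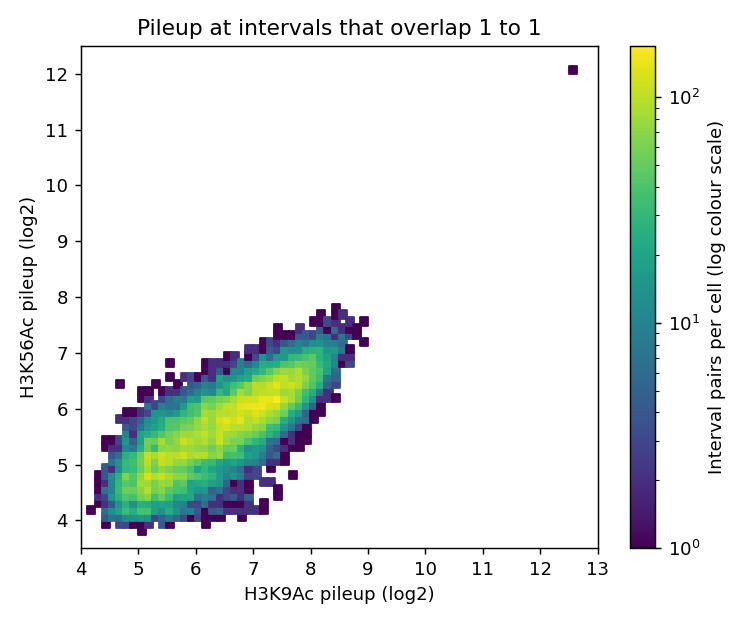
Pileup of H3K9Ac (x axis, log2) and H3K56Ac (y axis, log2) at the 21407 intervals that overlapped 1 to 1, with the number of pairs per cell on a log colour scale. The pairs form a single band (rho 0.823), and 1 pair on chromosome 9, with pileups of 5907 for H3K9Ac and 4128 for H3K56Ac, stands far outside it.

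Summits of the acetyl marks lay closer to each other than to those of H3K4me3. The median distance between an H3K9Ac summit and its H3K56Ac partner was 36 bp (quartiles 13 and 95 bp), and 75.9% of pairs were within 100 bp. In 1.27% of pairs the summits fell on the same base. H3K4me3 summits of batches 1 and 2 were a median of 93 bp apart, and 52.1% were within 100 bp. From H3K4me3 of batch 1, the median distance was 57 bp for H3K9Ac and 65 bp for H3K56Ac. From H3K4me3 of batch 2, it was 132 bp for H3K9Ac and 122 bp for H3K56Ac. The acetyl summits were the closest of these pairs of lists, at a distance well under the labelled fragment length of 300 to 500 bp. Strength and distance went together. Ordered by the lower percentile of the pair, the median distance by quintile was 63, 43, 36, 30 and 22 bp, lowest to highest. H3K4me3 intervals were wider, and a wider interval leaves more room for its summit.

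**Figure D3:**
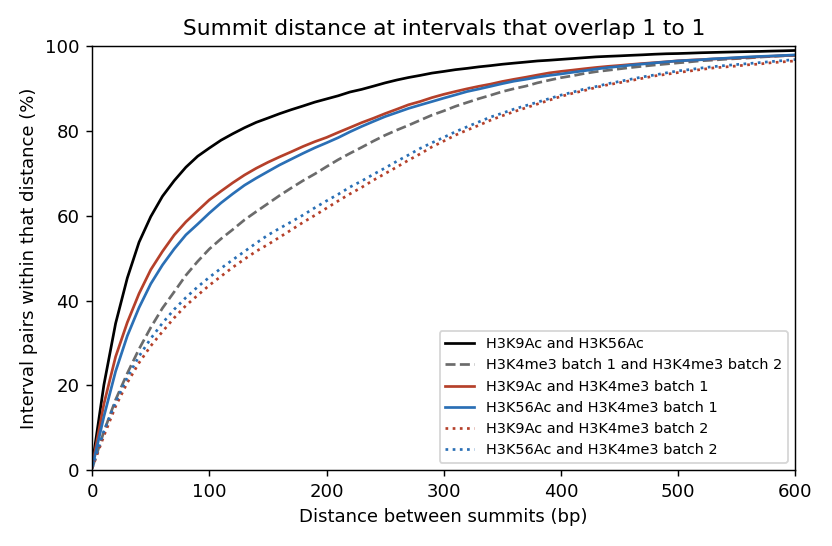
Cumulative share (%) of intervals that overlap 1 to 1 whose summits lie within a given distance (bp), for H3K9Ac with H3K56Ac, for H3K4me3 across batches, and for each acetyl mark with each H3K4me3 list. The curve of H3K9Ac with H3K56Ac lies highest, with 75.9% within 100 bp against 52.1% for H3K4me3 across batches.

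Wide intervals were commoner for H3K9Ac. At least 2000 bp was spanned by 426 H3K9Ac intervals, or 1.51% of the list and 6.09% of its length. The same held for 207 H3K56Ac intervals, or 0.646% of the list and 2.75% of its length. Where a wide H3K9Ac interval lay, H3K56Ac filled a median of 66.3% of it (quartiles 37.2 and 85.9%), and 181 of the 426 held several H3K56Ac intervals. A wide H3K56Ac interval was covered by H3K9Ac over a median of 88.9% of its length (quartiles 69.5 and 98.8%), and 60 of the 207 held several H3K9Ac intervals. Of the wide intervals, 27 for H3K9Ac and 4 for H3K56Ac were unshared. Summits lay in protein-coding genes for 83.3% of the wide H3K9Ac and 92.8% of the wide H3K56Ac intervals.

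The unshared intervals were weak and narrow in both lists, but their surroundings differed. H3K9Ac had 4781 intervals without H3K56Ac, with a median width of 279 bp, a median pileup of 32 and a median −log10 q of 5.43. H3K56Ac had 7992 intervals without H3K9Ac, with a median width of 234 bp, a median pileup of 23 and a median −log10 q of 4.56. The gap to the nearest interval of the other list had a median of 1619 bp for H3K9Ac and 2702 bp for H3K56Ac. It was over 5000 bp for 17.3% of the unshared H3K9Ac intervals and 29.5% of those of H3K56Ac.

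H3K4me3, H3K4me2 and H3K27me2 were found more often on the unshared H3K56Ac intervals than on those of H3K9Ac. H3K4me3 touched 16.5 ± 0.133% of the H3K9Ac intervals without H3K56Ac and 33.6 ± 1.61% of the H3K56Ac intervals without H3K9Ac (mean over H3K4me3 batches ± SD, n = 2). By H3K4me3 batch, the H3K9Ac values were 16.6% and 16.4% and the H3K56Ac values 32.4% and 34.7%. The order was the same with each H3K4me3 list. The SD covers the spread of the 2 H3K4me3 lists only, since each acetyl mark had 1 library. Among unshared intervals with −log10 q of at least 10, H3K4me3 touched 19.8% for H3K9Ac and 52.3% for H3K56Ac. The H3K4me3 list of seedling shoots, 2 weeks after germination, touched 19.4% of the unshared H3K9Ac and 40.3% of the unshared H3K56Ac intervals, against 11.8% of tiles. H3K4me2 touched 29.9% for H3K9Ac (exact 95% binomial interval 28.6 to 31.3%) and 63.0% for H3K56Ac (exact 95% binomial interval 61.9 to 64.0%), against 16.7% of tiles. H3K27me2 touched 16.8% for H3K9Ac and 41.1% for H3K56Ac, against 9.37% of tiles. The H3K4me2 and H3K27me2 lists are of batch 1, as is that of H3K9Ac, and the part of the batch in these shares was not tested.

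H3K9me2 and the seedling H3K27me list stayed rare on both. H3K9me2 of batch 1 touched 2 of the 4781 unshared H3K9Ac intervals and 20 of the 7992 unshared H3K56Ac intervals. H3K9me2 of batch 2 touched 10 for H3K9Ac and 54 for H3K56Ac. The seedling list labelled H3K27me, a label that does not say how many methyl groups are meant, touched 1.15% for H3K9Ac and 2.34% for H3K56Ac, against 17.1% of tiles.

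The shared intervals of the 2 lists are largely the same places, so their values lie close by construction. H3K4me3 touched 85.0 ± 0.526% of the shared H3K9Ac and 84.7 ± 0.520% of the shared H3K56Ac intervals (mean over batches ± SD, n = 2). H3K4me2 touched 89.5% for H3K9Ac and 87.1% for H3K56Ac, and H3K27me2 touched 28.3% for H3K9Ac and 28.0% for H3K56Ac. From the lowest to the highest quintile of pileup, H3K27me2 touched 40.4%, 49.1%, 37.7%, 19.1% and 7.00% of the shared H3K9Ac intervals. In the same order it touched 36.9%, 44.7%, 40.0%, 21.9% and 11.2% of the shared H3K56Ac intervals. In both lists the share was highest in the next-to-lowest quintile and lowest at the top.

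**Figure D4:**
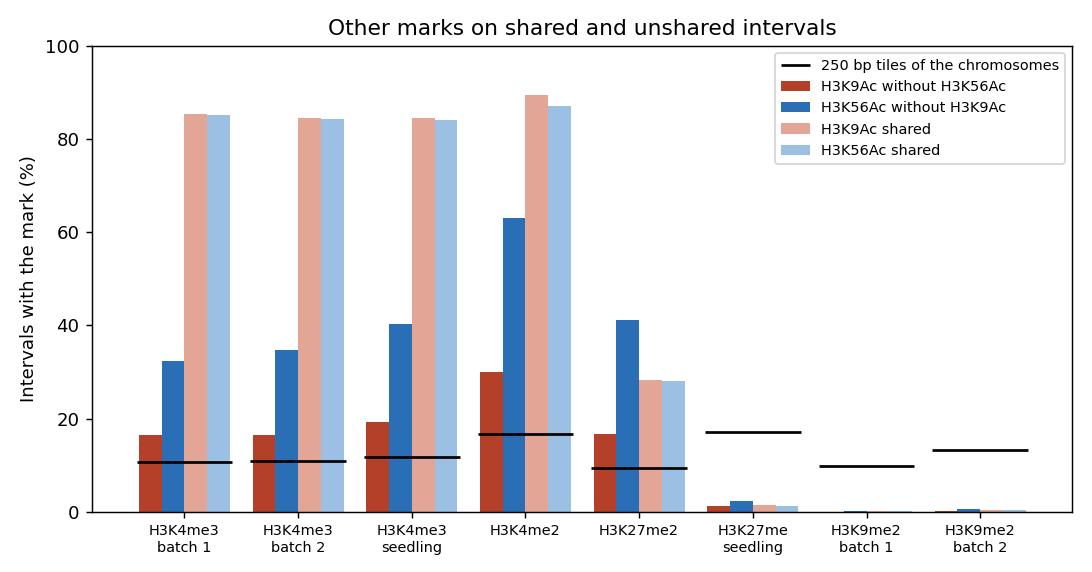
Share (%) of H3K9Ac intervals without H3K56Ac, H3K56Ac intervals without H3K9Ac, and shared intervals of each list that touch another mark, 1 list per position on the x axis. Black lines give the share of 250 bp tiles of the chromosomes that touch the mark. On unshared intervals H3K4me2 reaches 29.9% for H3K9Ac and 63.0% for H3K56Ac; the shared bars, largely the same places in both lists, are close to each other.

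Unshared intervals were also set beside shared ones of like rank. In the lowest quintile of H3K9Ac by pileup, H3K4me2 touched 25.9% of the unshared and 70.4% of the shared intervals. In the lowest quintile of H3K56Ac, it touched 54.8% of the unshared and 63.5% of the shared intervals. H3K4me3 in the lowest quintile touched 13.1 ± 0.177% of the unshared and 49.2 ± 0.579% of the shared H3K9Ac intervals, and 27.9 ± 2.15% of the unshared and 49.6 ± 0.989% of the shared H3K56Ac intervals (mean over batches ± SD, n = 2). For H3K56Ac, unshared intervals were thus nearer to shared ones by H3K4me2 than by H3K4me3. In the next quintile, H3K4me3 touched 22.7 ± 0.632% of the unshared and 68.7 ± 0.996% of the shared H3K9Ac intervals, and 37.2 ± 1.24% of the unshared and 63.9 ± 0.762% of the shared H3K56Ac intervals. H3K4me3 across batches was different again. H3K4me2 touched 1735 of its 1839 intervals seen only in batch 1 and 2891 of its 3143 intervals seen only in batch 2, and H3K27me2 touched 67.3% in batch 1 and 65.2% in batch 2.

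The combinations of marks separated the lists further. H3K4me3 (of either batch), H3K4me2 and H3K27me2 occurred together on 528 unshared H3K9Ac intervals (11.0%) and on 2225 unshared H3K56Ac intervals (27.8%). H3K4me2 alone of these 3 was on 380 for H3K9Ac (7.95%) and on 1114 for H3K56Ac (13.9%). These combinations were counted on unshared intervals only. No other mark of the 9 lists touched 3135 of the unshared H3K9Ac intervals (65.6%) and 2502 of the unshared H3K56Ac intervals (31.3%). Over each full list, the share was 15.7% for H3K9Ac and 12.2% for H3K56Ac, and among shared intervals 5.53% and 5.86%. The bare unshared intervals lay mostly between genes, with 19.2% of summits in a protein-coding gene for H3K9Ac and 30.7% for H3K56Ac. Bare shared intervals did too, with 22.3% for H3K9Ac and 22.8% for H3K56Ac. Among the unshared intervals with some other mark, the share in genes was 76.3% for H3K9Ac and 72.0% for H3K56Ac.

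The bare H3K9Ac intervals were not only the weakest ones. Of the 1040 unshared H3K9Ac intervals with −log10 q of at least 10, 678 (65.2%) carried no other mark. Of the 847 such H3K56Ac intervals, 150 (17.7%) did. The 678 strong bare H3K9Ac intervals had a median width of 560.5 bp, and their summits lay a median of 2368 bp from the nearest end of a protein-coding gene. Only 8.85% of those summits lay inside such a gene. For the 150 H3K56Ac intervals, the median width was 428.5 bp, the median distance 1777.5 bp and the share inside genes 21.3%.

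Position relative to genes followed the same division. Gene ends here are both annotated ends of 23230 protein-coding genes of RefSeq assembly ObraRS2, because the gene table used gives no strand and a beginning cannot be told from a far end. Protein-coding genes touched 37.3% of 250 bp tiles. Of unshared summits, 38.9% for H3K9Ac and 59.1% for H3K56Ac were in a protein-coding gene, while of shared summits the values were 77.8% for H3K9Ac and 78.0% for H3K56Ac. The median distance to the nearest gene end was 1389 bp for unshared H3K9Ac and 849 bp for unshared H3K56Ac. For shared intervals it was 356 bp for H3K9Ac and 366 bp for H3K56Ac. No annotated gene of any kind was touched by 57.1% of unshared H3K9Ac and 34.7% of unshared H3K56Ac intervals.

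**Figure D5:**
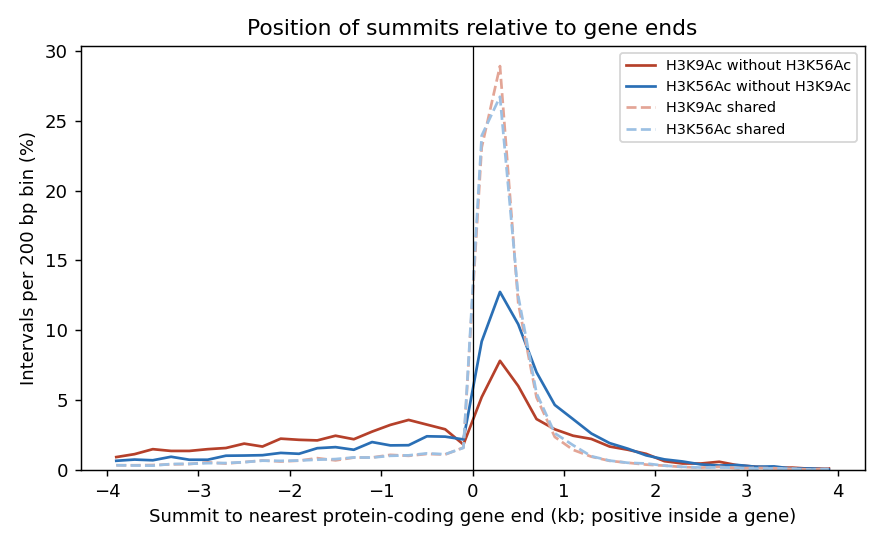
Share of intervals (%) per 200 bp bin of the distance from the summit to the nearest protein-coding gene end (kb, positive inside a gene), for the unshared and the shared intervals of H3K9Ac and H3K56Ac. The shared intervals of both marks peak just inside the gene end, while unshared H3K9Ac has a lower peak and a broad shoulder outside genes (38.9% of its summits in a gene, against 59.1% for unshared H3K56Ac).

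In overlapping pairs at gene ends, the summits of the 2 marks lay close together. These pairs were chosen for their overlap, which limits how far apart they can lie. Where a pair of overlapping intervals crossed 1 gene end only (8531 pairs), the summit was a median of 197 bp inside the gene for H3K9Ac (quartiles 128 and 309 bp) and 191 bp inside for H3K56Ac (quartiles 120 and 316 bp). The H3K9Ac summit minus the H3K56Ac summit had a median of 1 bp (quartiles −31 and 31 bp). H3K9Ac reached from a median of 38 bp outside the gene end (−38 on an axis that is positive inside) to 667 bp inside. H3K56Ac reached from 24 bp outside (−24) to 637 bp inside. Summits were inside the gene in 94.3% of pairs for H3K9Ac and 94.6% for H3K56Ac.

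Counted by gene, most protein-coding genes had both marks. An interval of each mark reached within 1000 bp of a gene end in 17302 genes (74.5%). H3K9Ac only was found at 454 genes (1.95%), H3K56Ac only at 1862 (8.02%) and neither at 3612 (15.5%). The order of the single-mark classes rested on the threshold and the window. With −log10 q of at least 10 in both lists, H3K9Ac only held 5.25% and H3K56Ac only 5.28% of genes. With the gene end itself inside the interval, H3K9Ac only held 11.2% and H3K56Ac only 8.01%, so the order turned.

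Genes of the single-mark classes had similar surroundings. H3K27me2 was near an end of 78.0% of genes with H3K9Ac only and 81.4% of genes with H3K56Ac only, against 38.0% of genes with both and 66.2% with neither. H3K4me3 was near an end of 68.0 ± 1.40% of genes with H3K9Ac only and 66.0 ± 3.34% of genes with H3K56Ac only (mean over batches ± SD, n = 2), which is within the spread between the batches. It was at 96.7 ± 0.188% of genes with both and 36.8 ± 4.78% of genes with neither. Median gene length was 2079 bp with H3K9Ac only, 2197 bp with H3K56Ac only, 3608 bp with both and 1822.5 bp with neither. Over all protein-coding genes, H3K27me2 was near an end of 46.7%, H3K4me3 near an end of 84.3 ± 0.843%, and median length was 3209 bp. Single-mark genes thus were shorter and more often near H3K27me2 than genes with both marks. Genes with neither mark were shorter still and also often near H3K27me2.

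Counted by an interval anywhere in the gene, H3K9Ac touched 74.3% and H3K56Ac 80.5% of protein-coding genes. Of the 7 genes of the class misc_RNA, H3K9Ac touched 6 and H3K56Ac 7, and each other class of the annotation had lower shares than protein-coding genes for both marks. Of 1051 long noncoding RNA genes, H3K9Ac touched 52.0% and H3K56Ac 55.5%. Of 1082 pseudogenes, H3K9Ac touched 41.1% and H3K56Ac 51.3%, with 28 touched by H3K9Ac alone (2.59%) and 138 by H3K56Ac alone (12.8%). Protein-coding genes leaned the same way, with 477 touched by H3K9Ac alone (2.05%) and 1929 by H3K56Ac alone (8.30%). Of 295 snoRNA genes, which guide chemical modification of ribosomal RNA, H3K9Ac touched 57 and H3K56Ac 70. Few intervals were listed on tRNA and rRNA genes. Of 474 tRNA genes, H3K9Ac touched 8 (1.69%) and H3K56Ac 4 (0.844%), and none of the 70 rRNA genes was touched by either. Of 250 bp tiles, 9.76% touched H3K9Ac and 9.95% touched H3K56Ac. The shares by class were not adjusted for gene length, and the part of length in them was not tested. Whether reads that fit several places were kept is unknown, so a lack of intervals on rRNA genes was not read as a lack of acetylation.

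The chromosomes differed in how much went unshared. For H3K9Ac, unshared intervals ran from 10.2% on chromosome 12 to 19.5% on chromosome 3. For H3K56Ac, they ran from 22.6% on chromosome 5 to 28.7% on chromosome 11. In the full lists, the unshared share was larger for H3K56Ac on each of the 12 chromosomes. Over all chromosomes together this order depended on list length, as given above. Chromosome 3 had the densest H3K9Ac list, at 132.5 intervals per Mb, and the densest H3K56Ac list, at 142.5 per Mb. Chromosome 11 had the sparsest lists, at 76.9 per Mb for H3K9Ac and 94.7 per Mb for H3K56Ac.

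Single sites show these classes. Coordinates are those of the RS2 assembly, as the lists give them. The gene named is the protein-coding gene with the nearest end, and the table used gives no product names. Among shared intervals other than the outlying pair on chromosome 9, the pair with the highest lower percentile of pileup had its H3K9Ac interval at chr8:12510399-12511140, with a pileup of 499. Its H3K56Ac partner, chr8:12510373-12511138, had a pileup of 189 and a summit 45 bp away. The H3K9Ac summit was 5740 bp from the nearest end of LOC102711174, and H3K4me3 of all 3 lists and H3K4me2 were present. On the same chromosome, the H3K9Ac interval chr8:11779066-11780484 had a pileup of 408 and its H3K56Ac partner 184. That pair crossed an end of LOC107304729. On chromosome 1, the H3K9Ac interval chr1:29627282-29627953 had a pileup of 396 and its partner 191, with summits 3 bp apart beside LOC102712223. On chromosome 9, chr9:479794-480696 had a pileup of 390 for H3K9Ac and 214 for H3K56Ac.

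The strongest H3K9Ac intervals without H3K56Ac included several bare ones. The highest pileup, 183, belonged to chr3:3533416-3538261, which was also the widest at 4846 bp. It covered the whole of LOC121053921 and carried H3K4me3, H3K4me2 and H3K27me2. Next came chr4:18180562-18182325, with a pileup of 158, no other mark and no gene end within 5000 bp of its summit. The interval chr10:12737171-12737929 in LOC102705662 had a pileup of 154 with H3K4me2 and H3K27me2. The intervals chr5:16232815-16233967, with a pileup of 149, and chr1:24730883-24732428 in LOC102700953, with 132, carried no other mark. The next widest, chr9:10277822-10281651 and chr10:15968964-15972639, spanned 3830 and 3676 bp and were also without any other mark. In all, 5 of these 7 intervals were bare, which is near the share among all unshared H3K9Ac intervals (65.6%).

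The strongest H3K56Ac intervals without H3K9Ac, leaving aside a pair on chromosome 9 described last, were in genes and carried H3K4me3 and H3K4me2. The pair left aside lay outside genes and carried neither. Few intervals are meant here. Of the 847 unshared H3K56Ac intervals with −log10 q of at least 10, 59.9% had their summit in a protein-coding gene. H3K4me3 touched 52.3% of them (mean over H3K4me3 batches) and H3K4me2 touched 77.8%. The interval chr2:3819552-3820323 in LOC102713051 had a pileup of 87, with H3K4me3, H3K4me2 and H3K27me2. The intervals chr7:17022571-17023378 in LOC102702957, with 79, and chr8:4036360-4037258 in LOC102717917, with 76, carried H3K4me3 and H3K4me2. Among the widest, chr5:5582061-5584658 in LOC102705909 spanned 2598 bp and chr5:16639482-16641664 in LOC102717902 spanned 2183 bp, and both carried H3K4me3 and H3K27me2. The remaining one, chr3:3698270-3700365, spanned 2096 bp with no other mark.

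Among shared intervals, the largest changes of rank went with a narrow partner. Rank is the percentile of pileup within a list, and the pileups themselves are not comparable in size between the lists. On the H3K9Ac side, chr3:28263159-28264159 in LOC102713180 had a pileup of 143 over 1001 bp (percentile 79.0). Its H3K56Ac partner had 19 over 392 bp (percentile 5.77). The pair at chr7:8299728-8300758 in LOC102713791 had 134 for H3K9Ac (percentile 76.3) and 18 for H3K56Ac (percentile 3.60). That at chr3:9335735-9336734 in LOC102700609 had 149 for H3K9Ac (percentile 80.7) and 20 for H3K56Ac (percentile 8.33). The H3K9Ac interval chr5:16229584-16230650 had 170 (percentile 86.0), and its H3K56Ac partner had 22 (percentile 14.0). This H3K9Ac interval had no other mark and neighboured the bare interval at chr5:16232815-16233967. At chr6:15404168-15405083 the values were 136 for H3K9Ac (percentile 77.0) and 19 for H3K56Ac (percentile 5.77). On the H3K56Ac side, the largest was in LOC107303587. There the H3K9Ac interval chr2:5063858-5064023 had a pileup of 26 over 166 bp (percentile 4.77). Its H3K56Ac partner had 84 over 1916 bp (percentile 89.0), and the summits were 1162 bp apart. The 4 next had pileups of 27 to 40 for H3K9Ac (percentiles 6.19 to 24.7) and 61 to 90 for H3K56Ac (percentiles 72.5 to 91.7). All 4 carried H3K4me3 of batch 1 and H3K4me2. Of these, chr6:13732861-13733225 in LOC121054764 had 38 for H3K9Ac (percentile 22.1) and 82 for H3K56Ac (percentile 88.0).

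A stretch of chromosome 9 stood apart in both lists. The H3K9Ac interval chr9:3216449-3216826 had a pileup of 5907, against 499 for the next highest of that list. The H3K56Ac intervals chr9:3216384-3216886, chr9:3215983-3216205 and chr9:3193268-3193478 had pileups of 4128, 2664 and 2467, against 221 for the next highest. The first of these overlapped the H3K9Ac interval and had its summit on the same base. The fold enrichment over the control was 1.96 for the H3K9Ac interval, under its list's median of 5.12. For the H3K56Ac intervals it was 5.28, 3.63 and 2.96, and only the first of these was above their list's median of 4.83. The same place was in other lists too. H3K9me2 of batch 2 and of seedlings touched the H3K9Ac interval and both of the H3K56Ac intervals that had no H3K9Ac. H3K4me3 was listed there with pileups of 1537 for H3K4me3 of batch 2 and 4628 for H3K4me3 of seedlings. The seedling H3K27me list held chr9:3207021-3220377 with 1809 and chr9:3186654-3198373 with 1713. H3K4me3 of batch 1 had no interval on the H3K9Ac interval. The nearest gene end, of LOC107305519, was 100162 bp from the H3K9Ac summit.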

How the data were processed

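Per the labels' protocols, 8 g of tissue per tillering sample went into a 3% formaldehyde fixation, sonication gave fragments of 300 to 500 bp, and sequencing was paired-end with 90 bp reads. The submitters' processing notes name Bowtie, MACS2 and bedtools without versions. Handling of multi-mapped reads and the calling threshold for these lists are not given in the sources used here. Peaks were listed per library. The deposited pileup is a coverage signal, not corrected for depth between lists. A joined column of the deposited lists holds −log10 p, fold enrichment and −log10 q for each peak; the order was taken from the values, and every value given per peak comes from the authors. Beyond the 11 O. brachyantha lists, the other deposited lists of the series, which include −log10 p or q and ratio (fold enrichment) columns, were not used.

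Starts were read as BED and are printed counting from 1. Chromosome length is the last position in any of the 11 O. brachyantha lists or the gene table. Lists named RS2 were joined to RefSeq's ObraRS2 table, whose last gene end per chromosome lay 0.033 to 8.16 kb from the last peak end. The table gives no strand and no product names, so both gene ends replaced gene starts and no gene list by function was made. No genome sequence was used here, so the planned comparison of sequence at summits was not made. Overlaps, summit distances (column 8 of the lists), ranks and exact binomial intervals were computed with Python 3.11.15, numpy 2.4.6, pandas 2.3.3 and SciPy 1.17.1, and the overlap code was tested on simulated data.

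Named intervals were the 5 shared pairs with the highest lower percentile of pileup, the 5 highest and 3 widest unshared intervals per list, and the 5 pairs with the largest percentile difference each way. Part of each group is described. The marks, lists and rules were chosen with earlier results of these data known. Nothing in the labels says whether libraries came from separate plants. Alternatives were a 50% reciprocal overlap, summit inclusion, the 50% of highest −log10 q, equal list lengths, unplaced contigs, interval centres, fold enrichment in place of pileup, a 50% cover or a 1 kb distance for unshared intervals, other gene windows, and leaving out each H3K4me3 batch. A minimum −log10 q of 10 and the use of both gene ends were added after seeing the data.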

Additional observations from a re-analysis of the deposited data

How the results depend on the processing

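No paired analysis was possible because each acetyl mark had 1 library and the lists share no replicate number. Of 66 values recomputed for 16 results, 52 moved past the interval or batch SD of the value reported; the causes were not tested. The share of length in either list has no such interval, so any change counted, and values without 1 H3K4me3 batch lie within the SD by construction. With the 50% of intervals of highest −log10 q, median width was 753 bp for H3K9Ac and 681 bp for H3K56Ac, 90.2% of H3K9Ac and 79.9% of H3K56Ac intervals were shared (59.5% of the length in either), summit distance was 28 bp and rho 0.656. With lists of equal length, H3K56Ac width was 552 bp, shares were 80.1% for H3K9Ac and 81.4% for H3K56Ac (60.1% of the length), and genes with both, H3K9Ac only and H3K56Ac only were 73.4%, 3.00% and 6.18%. With −log10 q of at least 10, widths were 700 bp for H3K9Ac and 652 bp for H3K56Ac, shares 84.4% and 87.7% in that order (61.9% of the length), distance 31 bp, rho 0.727, and genes 61.8% with both, 5.25% with H3K9Ac only and 5.28% with H3K56Ac only. A 50% reciprocal overlap gave shares of 68.6% for H3K9Ac and 60.3% for H3K56Ac and a distance of 34 bp. Summit inclusion gave 80.5% for H3K9Ac and 72.4% for H3K56Ac. With unplaced contigs, 59.2% of the length was shared. Interval centres were 44 bp apart, and rho of fold enrichment was 0.781. A 500 bp window gave 70.9% of genes with both and 2.35% with H3K9Ac only. With the gene end inside the interval, 26.0% had both, 11.2% H3K9Ac only and 8.01% H3K56Ac only.

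On unshared intervals H3K4me3, H3K4me2 and H3K27me2 stayed less frequent for H3K9Ac than for H3K56Ac under each alternative run. With 50% of the interval covered, H3K9Ac had 13.6%, 26.8% and 14.7% and H3K56Ac 29.3%, 60.3% and 37.2%, in that order of marks. At least 1 kb from the other list, H3K9Ac had 13.9%, 28.0% and 19.4%, and H3K56Ac had 64.4% with H3K4me2 and 46.2% with H3K27me2. With −log10 q of at least 10, H3K9Ac had 19.8% with H3K4me3 and 19.5% with H3K27me2, and H3K56Ac had 52.3%, 77.8% and 50.8%. Leaving out either H3K4me3 batch gave 16.4 to 16.6% for H3K9Ac and 32.4 to 34.7% for H3K56Ac. Depth is unknown, so an interval absent from a list may lie under its calling threshold.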
